A study of Homo sapiens with 16 samples.

Results

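The transcripts of 10 genes of the NF-κB pathway were followed in LP-1 cells: the subunit genes NFKB1, RELA, RELB and REL, the inhibitor genes NFKBIA, NFKBIB, NFKBIE, NFKBIZ and BCL3, and the deubiquitinase gene TNFAIP3. They were chosen as genes that encode the transcription factor and the proteins that restrain it, and were found through the RefSeq accession of each probe, which gave 12 probes of 50599 gene probes on the array. All 12 were among the 33731 probes tested, which carry 16398 gene symbols. RELA and NFKBIB had a second probe, and the brightest probe of each gene is reported unless stated. LP-1 cells come from a human myeloma and carry a defect in TRAF3. One line, LP-1-cIAP2-eGFP, had received a lentiviral vector for cIAP2 and eGFP, and the control line, LP-1-eGFP, the same vector with eGFP alone. Both had been sorted for eGFP, so that every sample carries eGFP and the TRAF3 defect, and each line is 1 transduced population. Cells were left untreated (0 nM) or given 10 nM bortezomib, an inhibitor of the proteasome, for 6 h or 24 h, and each of the 8 conditions had 2 biological replicates.

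The transcription factors of the NF-κB family act as dimers, and inhibitors of the IκB family keep these out of the nucleus. In the canonical pathway a kinase complex marks the inhibitor for destruction by the proteasome and releases dimers such as those of RELA, whereas in the non-canonical pathway, which TRAF3 and the cIAP proteins restrain, the kinase encoded by MAP3K14 leads to dimers of RELB. Several inhibitors are themselves targets of NF-κB, which makes a feedback loop, and myeloma cells often carry lesions that keep the pathway active.

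The promoters of the genes were searched for the κB consensus, the site that NF-κB dimers bind, to show what the feedback genes have in common. The RefSeq promoter sequences (assembly GRCh38.p14) run from 250 bases before to 50 after a transcription start. The search covered 12 promoters of 8 of the genes, all but RELB and NFKBIE. On either strand, 8 of the 12 promoters held the consensus, against 5.91% of all 35116 promoters of that length, and 7 of the 8 genes had such a promoter, against 7.09% of all 27305 genes. Among the promoters of known NF-κB target genes, 15 of 45 held it. Overlapping matches were merged, and the consensus is in capitals in windows printed on the strand of the gene. A match of this kind is a description and not evidence of binding. The genes were chosen for their part in the pathway, and several were already known as NF-κB targets. The excess over all promoters may thus come with that choice and is not a test of a shared trait.
NFKB1 (chr4:102501301-102501328, plus strand): gacgtcagtGGGAATTTCCagccaggaa
REL (chr2:60881518-60881546, plus strand): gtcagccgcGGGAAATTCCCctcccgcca
NFKBIA (chr14:35404812-35404839, minus strand): gactggcttGGAAATTCCCcgagcctga
NFKBIB (chr19:38899932-38899960, plus strand): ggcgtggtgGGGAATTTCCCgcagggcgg
NFKBIZ (chr3:101827758-101827785, plus strand): ttttggtctGGGAATTTCCagtgtgcag
NFKBIZ, second promoter (chr3:101849266-101849293, plus strand): cgcgctgtcGGGGTTTCCCggtgaaggg
BCL3 (chr19:44748701-44748728, plus strand): cggctgcagGGGAAGTCCCggcgcccgg
TNFAIP3 (chr6:137867183-137867222, plus strand): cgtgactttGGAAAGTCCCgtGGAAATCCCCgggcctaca
The match of NFKB1 and that of the first NFKBIZ promoter had the same letters. In TNFAIP3, 2 matches stood side by side between 67 and 46 bases before the start, while the match of BCL3 lay just after its start. Neither promoter of RELA held the consensus in this window.

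Each gene was measured as the background-corrected signal of its probe, on a log2 scale after quantile normalization of the 16 arrays. All 10 genes were well above background on 16 of 16 arrays except NFKBIZ, with 15. NFKB1, RELA and NFKBIA were each spotted 10 times on an array and the others once. One array stood apart. Replicate 1 of LP-1-cIAP2-eGFP given bortezomib for 24 h had a median log2 signal of 3.18 and 35.5% of its spots well above background, against at least 5.73 and 49.0% on the other 15. The main results that rest on its condition are also given without it. The arrays came from 2 slides, with 6 LP-1-cIAP2-eGFP and 2 LP-1-eGFP arrays on slide 1 and the reverse on slide 2, so that slide and line can be told apart only in part.

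The labels were checked first with BIRC3, the gene of cIAP2. Its single matched probe read between 11.92 and 13.67 on the arrays labelled LP-1-cIAP2-eGFP and from 13.54 to 14.04 on those labelled LP-1-eGFP. These ranges overlapped, and averaged over treatment and time the signal was lower in the line labelled as overexpressing cIAP2 (log2 difference -1.16). Per the study's methods, this probe targets the 3 prime UTR and reads only endogenous cIAP2, so it checks nothing about the overexpression. There the overexpression was checked by RT-qPCR, and also on the protein. The lines are named below as in the labels. As for the cell type, 7 of 7 plasma cell genes were well above background on every array with a value, among them XBP1, between 15.91 and 17.69. The B cell genes MS4A1 and PAX5 were not well above background on any array, EPCAM of epithelial cells was on 2, and CD3E of T cells and CD14 of monocytes were on 10 and 13 at low signal, with medians of 5.23 and 6.25. In bulk RNA of this kind, fewer cells of a type and less RNA per cell cannot be told apart.

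**Figure D1:**
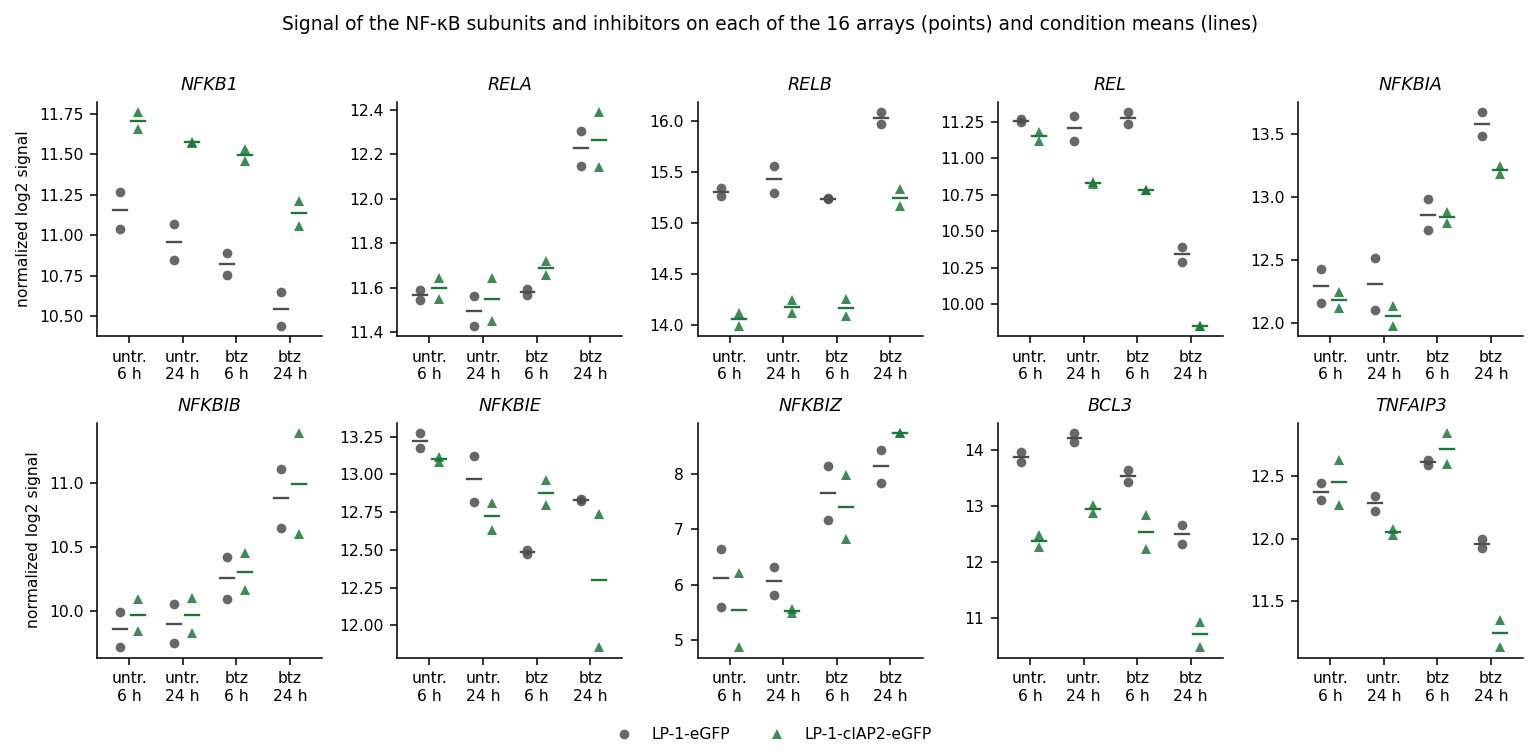
Normalized log2 signal (y axis) of each gene on every array, by treatment and time (x axis), for LP-1-eGFP (circles) and for LP-1-cIAP2-eGFP (triangles), with a line at the mean of the 2 replicates. RELB and BCL3 lie lower and NFKB1 higher in LP-1-cIAP2-eGFP in all 4 conditions, and RELA, REL and BCL3 shift with treatment mainly at 24 h. Each panel has its own y axis, which does not start at 0.

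The first comparison asked whether the pathway's own genes differed between the lines. RELB and BCL3 were more than 2-fold lower in the line labelled LP-1-cIAP2-eGFP, REL was slightly lower, and NFKB1 was higher. Averaged over treatment and time, 1 of the 10 genes was higher and 3 were lower (limma, Benjamini-Hochberg adjusted p under 0.05 over all probes tested), whereas 6.26% of all probes were higher and 9.84% lower. The median log2 difference of the 10 genes was -0.19, against -0.02 for all probes.

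RELB, the subunit that partners the processed product of the non-canonical pathway, had the largest line difference among the subunits. In untreated LP-1-eGFP its log2 signal was 15.27 and 15.35 at 6 h and 15.56 and 15.30 at 24 h, and in untreated LP-1-cIAP2-eGFP it was 14.12 and 14.00 at 6 h and 14.25 and 14.12 at 24 h. With bortezomib it was 15.25 and 15.24 at 6 h and 15.97 and 16.09 at 24 h in the control line, against 14.09 and 14.26 at 6 h and 15.17 and 15.33 at 24 h in LP-1-cIAP2-eGFP. The lines did not overlap in any condition, and within LP-1-cIAP2-eGFP the arrays after 24 h of bortezomib were the highest. The log2 difference was -1.25 in untreated cells (standard error 0.102, adjusted p = 7.82e-05) and -0.93 in bortezomib-treated cells (standard error 0.102, adjusted p = 0.000488).

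NFKB1 encodes a precursor that is processed to a DNA-binding subunit and also acts as an inhibitor itself. Its signal was 11.66 and 11.76 at 6 h and 11.57 and 11.58 at 24 h in untreated LP-1-cIAP2-eGFP, against 11.04 and 11.27 at 6 h and 10.85 and 11.07 at 24 h in untreated LP-1-eGFP. With bortezomib it was 11.46 and 11.53 at 6 h and 11.21 and 11.06 at 24 h in LP-1-cIAP2-eGFP, against 10.76 and 10.89 at 6 h and 10.44 and 10.65 at 24 h in the control line. Every LP-1-cIAP2-eGFP array lay above both LP-1-eGFP arrays of its condition. The averaged log2 difference was 0.61 (standard error 0.075, adjusted p = 0.000415), or 1.52-fold, with 0.59 in untreated (adjusted p = 0.00814) and 0.63 in bortezomib-treated cells (adjusted p = 0.00507). The untreated value was 0.53 without LP-1-eGFP untreated 6 h replicate 1 and missed the threshold (adjusted p = 0.0559), as did the treated one with array weights (adjusted p = 0.0806).

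REL, a subunit best known from lymphocytes, was lower by a small step. Untreated, its signal was 11.18 and 11.12 at 6 h and 10.83 and 10.83 at 24 h in LP-1-cIAP2-eGFP, against 11.24 and 11.27 at 6 h and 11.29 and 11.12 at 24 h in the control line. With bortezomib it was 10.78 and 10.78 at 6 h and 9.85 and 9.85 at 24 h in LP-1-cIAP2-eGFP, against 11.23 and 11.32 at 6 h and 10.39 and 10.29 at 24 h in the control line. The lines did not overlap in any of the 4 conditions, and the gap was smallest in untreated cells at 6 h, at -0.11. Averaged, the log2 difference was -0.37 (standard error 0.060, adjusted p = 0.00241). In untreated cells alone it was -0.24 and missed the threshold (adjusted p = 0.140), and with bortezomib it was -0.49 (adjusted p = 0.00593). The untreated difference passed with probes well above background on all arrays, with array weights and without moderation. With array weights, the treated one missed the threshold. RELA, the activating subunit of the canonical pathway, differed by 0.06, with a 95% confidence interval from -0.10 to 0.22.

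BCL3, an atypical nuclear member of the inhibitor family that binds NF-κB dimers on DNA, had the largest line difference of the 10 genes. Untreated, its signal was 13.79 and 13.98 at 6 h and 14.30 and 14.15 at 24 h in the control line, against 12.27 and 12.48 at 6 h and 12.89 and 13.01 at 24 h in LP-1-cIAP2-eGFP. With bortezomib it was 13.43 and 13.64 at 6 h and 12.32 and 12.67 at 24 h in the control line, against 12.24 and 12.84 at 6 h and 10.48 and 10.92 at 24 h in LP-1-cIAP2-eGFP. The lines were apart in every condition, and the lowest values of all were the LP-1-cIAP2-eGFP arrays after 24 h of bortezomib. The averaged log2 difference was -1.39 (standard error 0.118, adjusted p = 4.03e-05), or 2.63-fold, and it was also -1.39 in untreated and in bortezomib-treated cells (adjusted p = 0.000763 and 0.000832).

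On their brightest probes, the remaining inhibitors did not pass the test between the lines. NFKBIA, the inhibitor that NF-κB itself induces, differed by -0.19 (95% confidence interval -0.39 to 0.01), NFKBIB by 0.09 (-0.23 to 0.40), NFKBIE by -0.13 (-0.40 to 0.15) and NFKBIZ, a nuclear inhibitor with activating functions, by -0.20 (-0.83 to 0.44). The interval of NFKBIZ is the widest of these. For NFKBIE, too, the lines did not overlap in any of the 4 conditions, but the direction varied. Its difference was -0.12 and -0.25 in untreated cells at 6 h and 24 h, and 0.39 and -0.53 with bortezomib. The brightest probe of NFKBIB is assigned to a non-coding RefSeq transcript of the gene. Its second probe, assigned to a protein-coding transcript, gave 0.33 (adjusted p = 0.0391), which passed, so the call of NFKBIB depends on the probe. TNFAIP3, which removes activating ubiquitin chains upstream of the kinase complex, differed by -0.19 (adjusted p = 0.160).

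In untreated cells 1 gene was higher and 2 lower, beside 2.85% and 4.9% of all probes, and with bortezomib 1 was higher and 3 lower, beside 3.15% and 6.2%. Both RELB and BCL3 also passed the stricter limits of the study's 3-way analysis, that is, over 2-fold between untreated lines with an adjusted p below 0.001, which 1.76% of all probes passed in that direction. With the slide as a block, the averaged differences were -1.11 for RELB (adjusted p = 0.000203), -1.33 for BCL3 (0.000885), 0.62 for NFKB1 (0.00512) and -0.39 for REL (0.0162). Within slide 1 and slide 2, each from the 2 conditions that hold both lines there, they were -0.97 and -1.29 for RELB, -1.66 and -1.26 for BCL3, 0.54 and 0.67 for NFKB1 and -0.32 and -0.25 for REL. Without the dim array they were -1.07, -1.34, 0.59 and -0.37. Among the plasma cell genes, SDC1 was higher in LP-1-cIAP2-eGFP (log2 difference 1.42, adjusted p = 5.10e-06), MZB1 was higher (0.50, adjusted p = 0.00750) and CD38 lower (-0.55, adjusted p = 0.00279). The part of these markers in the results was not tested.

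**Figure D2:**
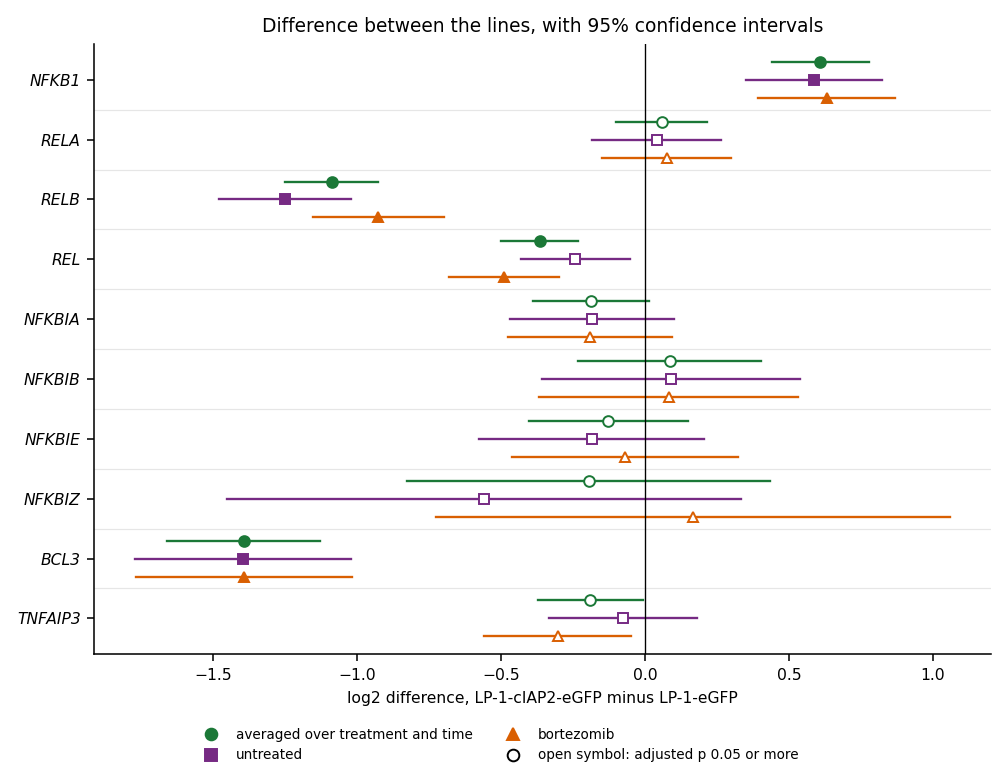
Log2 difference between the lines, LP-1-cIAP2-eGFP minus LP-1-eGFP (x axis), for each gene (y axis), averaged over treatment and time (circles), untreated (squares) and with bortezomib (triangles), with 95% confidence intervals from limma. RELB and BCL3 lie left of 0 and NFKB1 right of it in all 3 rows, and open symbols mark an adjusted p of 0.05 or more.

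The second comparison was the response to bortezomib. At 6 h none of the 10 genes passed the test in either line, beside 1.95% of all probes in the control line and 1.09% in LP-1-cIAP2-eGFP (limma). At an unadjusted p under 0.05 there were 3 genes in each line, beside 3968 of 33731 and 3589 of 33716 probes. The largest values were those of NFKBIZ, at 1.54 in the control line (95% confidence interval 0.28 to 2.80, adjusted p = 0.275) and 1.86 in LP-1-cIAP2-eGFP (0.60 to 3.12, adjusted p = 0.203). NFKBIE had -0.74 in the control line (adjusted p = 0.215). NFKBIA had 0.57 (0.17 to 0.97, adjusted p = 0.184) and 0.66 (0.26 to 1.06, adjusted p = 0.153). Its 4 bortezomib arrays at 6 h lay between 12.74 and 12.99, above every untreated array of either line at 6 h, which lay between 12.12 and 12.43. How many of all probes were separated in this way was not counted. With the probe's own variance in place of the moderated one, 0 genes passed in the control line and 1, REL, in LP-1-cIAP2-eGFP.

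At 24 h 5 of the 10 genes rose in both lines, among them 3 inhibitors, while REL and BCL3 fell. In LP-1-eGFP 5 rose and 2 fell, beside 9.81% and 11.2% of all probes, and in LP-1-cIAP2-eGFP 5 rose and 3 fell, beside 11.1% and 17.5%. On their brightest probes, RELA, RELB, NFKBIA, NFKBIB and NFKBIZ rose in each line. The response of the 3 inhibitors at 24 h was not shown to differ from that at 6 h, since the gap passed in neither line: it was 0.70 and 0.50 for NFKBIA (adjusted p = 0.188 and 0.271), 0.58 and 0.69 for NFKBIB (0.585 and 0.331) and 0.55 and 1.37 for NFKBIZ (0.863 and 0.335). The median log2 difference of the 10 genes was 0.23 and 0.15, against -0.03 and -0.16 for all probes.

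NFKBIZ had the largest rise, from a low signal. In LP-1-eGFP it was 6.31 and 5.81 untreated and 8.45 and 7.85 with bortezomib at 24 h, and in LP-1-cIAP2-eGFP it was 5.55 and 5.48 untreated and 8.74 and 8.74 with bortezomib. Treated and untreated arrays were far apart in each line, and the LP-1-cIAP2-eGFP arrays were the lowest untreated and the highest treated. The log2 difference was 2.09 in the control line (standard error 0.563, adjusted p = 0.0254), or 4.25-fold, and 3.22 in LP-1-cIAP2-eGFP (standard error 0.563, adjusted p = 0.00222), or 9.35-fold. With the slide as a block, the value in the control line missed the threshold (1.97, adjusted p = 0.0645).

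NFKBIA rose from 12.52 and 12.10 to 13.67 and 13.48 in the control line and from 12.13 and 11.98 to 13.25 and 13.19 in LP-1-cIAP2-eGFP. No treated array overlapped an untreated one, and the treated LP-1-eGFP arrays were the highest of the 16. The log2 difference was 1.27 (standard error 0.180, adjusted p = 0.000858) and 1.16 (standard error 0.180, adjusted p = 0.00112). NFKBIB, an inhibitor related to the product of NFKBIA, rose by 0.98 in the control line (adjusted p = 0.0345) and, in LP-1-cIAP2-eGFP, by 1.03 (adjusted p = 0.0224). It passed in 11 of 26 alternatives in the control line and in 20 of 26 in LP-1-cIAP2-eGFP, where the value was 0.42 with normexp background correction (adjusted p = 0.513) and 0.64 without replicate 2 of the treated arrays (adjusted p = 0.0742). Its replicates were further apart, at 10.66 and 11.11 and at 10.61 and 11.39 after bortezomib. Its second probe, the one assigned to a protein-coding transcript, missed the threshold in the control line, at 0.50 (adjusted p = 0.0955). In LP-1-cIAP2-eGFP that probe gave 0.78 and passed (adjusted p = 0.0114). NFKBIE, the inhibitor linked to REL-containing dimers, did not pass in either line, at -0.14 and -0.42, and its treated LP-1-cIAP2-eGFP arrays disagreed, at 11.86 on the dim array and 12.74 on the other.

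Among the subunits, RELA rose from 11.43 and 11.56 to 12.15 and 12.31 in the control line and from 11.64 and 11.45 to 12.39 and 12.14 in LP-1-cIAP2-eGFP. The 4 treated arrays at 24 h were the highest of the 16 and overlapped between the lines. The log2 difference was 0.73 (adjusted p = 0.00479) and 0.72 (adjusted p = 0.00423), while the second RELA probe gave 0.64 (adjusted p = 0.101) and 0.14 (adjusted p = 0.706). RELB, whose levels are given above, rose by 0.60 in the control line (standard error 0.144, adjusted p = 0.0147) and, in LP-1-cIAP2-eGFP, by 1.07 (standard error 0.144, adjusted p = 0.000512). REL fell from 11.29 and 11.12 to 10.39 and 10.29 in the control line, and from 10.83 and 10.83 to 9.85 and 9.85 in LP-1-cIAP2-eGFP. Its log2 difference was -0.86 (adjusted p = 0.000770) and -0.98 (adjusted p = 0.000296). On their brightest probes RELA and REL, both activating subunits, thus moved in opposite directions in both lines. With the probes of a gene averaged, RELA missed the threshold in LP-1-cIAP2-eGFP. NFKB1 had -0.41 (adjusted p = 0.0846) and -0.44 (adjusted p = 0.0529), short of the threshold, and without the dim array -0.41 (adjusted p = 0.0442) and -0.52 (adjusted p = 0.0448).

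BCL3 fell in both lines, by 3.33-fold in the control line (log2 difference -1.74, standard error 0.237, adjusted p = 0.000713) and by 4.75-fold in LP-1-cIAP2-eGFP (-2.25, standard error 0.237, adjusted p = 0.000127). TNFAIP3 was 12.34 and 12.22 untreated and 11.99 and 11.92 with bortezomib in the control line, and 12.03 and 12.08 untreated and 11.35 and 11.14 with bortezomib in LP-1-cIAP2-eGFP. Treated arrays were lower in each line without overlap, but only the change in LP-1-cIAP2-eGFP passed, at -0.81 (standard error 0.162, adjusted p = 0.00457), against -0.32 in the control line (standard error 0.162, adjusted p = 0.220). Of the inhibitors with a κB match in the promoter, NFKBIA, NFKBIB and NFKBIZ rose and BCL3 fell.

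Without the dim array, the LP-1-cIAP2-eGFP values at 24 h were 3.30 for NFKBIZ, 1.13 for NFKBIA, 1.43 for NFKBIB, 0.60 for RELA, 1.15 for RELB, -0.98 for REL, -2.03 for BCL3 and -0.92 for TNFAIP3, and each passed the test. NFKBIE moved from -0.42 to 0.02. Within slide 1, where 2 treated and 1 untreated LP-1-cIAP2-eGFP arrays lay, the 8 genes had values between -2.18 for BCL3 and 3.19 for NFKBIZ, and within slide 2, with 1 treated and 2 untreated LP-1-eGFP arrays, the 7 genes had values between -1.56 for BCL3 and 1.79 for NFKBIZ. With each array scaled to its 75th percentile, RELA, RELB and NFKBIB missed the threshold in the control line (0.55, 0.44 and 0.88) and RELA and NFKBIB in LP-1-cIAP2-eGFP (0.51 and 0.89). The median of all probes was then 0.21 at 24 h in LP-1-cIAP2-eGFP. With array weights estimated by limma, REL, RELB and BCL3 kept the threshold there and the other 5 did not. Both arrays of a condition had the same weight, so the weights follow the spread of each condition and were lowest, at 0.126, for both treated LP-1-cIAP2-eGFP arrays at 24 h. The plasma cell genes SDC1, CD38, TNFRSF17, PRDM1, XBP1 and MZB1, 6 of 7, fell at 24 h in both lines, and the log2 difference of SDC1 was -1.80 in the control line and -3.11 in LP-1-cIAP2-eGFP. The summed signal of 6 plasma cell genes, all but PRDM1, which lacked a value on 1 array, and of which XBP1 had the highest median, was 17.14 and 16.99 on the treated LP-1-eGFP arrays at 24 h, against 18.71 and 18.49 untreated, and 17.10 and 17.17 against 18.65 and 18.39 in LP-1-cIAP2-eGFP (log2 of the sum). The part of these shifts in the results was not tested.

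**Figure D3:**
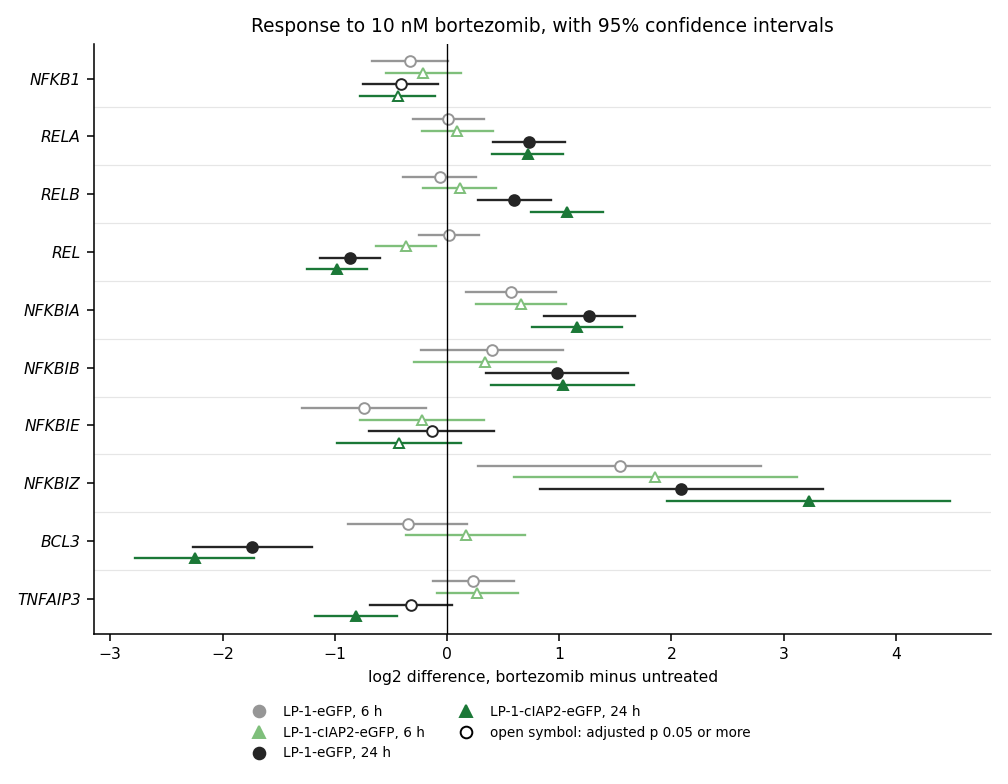
Log2 difference between bortezomib-treated and untreated cells (x axis) for each gene (y axis) in the control line (circles) and for LP-1-cIAP2-eGFP (triangles) at 6 h (light) and 24 h (dark), with 95% confidence intervals from limma. All symbols at 6 h are open, that is, at an adjusted p of 0.05 or more, while at 24 h NFKBIZ reaches 2.09 and 3.22 and BCL3 -1.74 and -2.25.

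Whether the lines responded differently to bortezomib was tested as the difference of their responses. None of the 10 genes passed at 6 h or at 24 h, where 0.00297% and 0.0712% of all probes passed. At an unadjusted p under 0.05 there was 1 gene at each time, REL at 6 h and RELB at 24 h. Of all probes, 691 of 33716 at 6 h and 2731 of 33730 at 24 h were under it. The fit with each probe's own variance called none of the 10 genes. At 24 h the largest values were 1.14 for NFKBIZ (95% confidence interval -0.65 to 2.92), -0.51 for BCL3 (-1.26 to 0.24), -0.49 for TNFAIP3 (-1.003 to 0.02) and 0.47 for RELB (0.01 to 0.93, adjusted p = 0.616). The call of TNFAIP3 in 1 line alone is therefore not a difference between the lines that passed a test. These intervals are wide, so equal responses are not shown. Without the dim array the values at 24 h were 1.16 for NFKBIZ, -0.60 for TNFAIP3, 0.56 for RELB and -0.29 for BCL3. NFKBIB then moved from 0.05 to 0.44, and NFKBIE turned from -0.29 to 0.16. In untreated cells none of the 10 genes changed between 6 h and 24 h, where 0.0089% of all probes did. BCL3 had the largest value, 0.46 higher at 24 h (adjusted p = 0.912). Of the 10 genes, 1 had an unadjusted p under 0.05, beside 1631 of 33716 probes.

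The order of the 8 conditions separated the genes into kinds. For RELB, LP-1-eGFP with bortezomib at 24 h stood first with both arrays above all others, and the 3 other LP-1-eGFP conditions and LP-1-cIAP2-eGFP after 24 h of bortezomib came next without a clear step between them. The remaining LP-1-cIAP2-eGFP conditions were lowest and overlapped. For NFKB1 the order was nearly the reverse, with 3 LP-1-cIAP2-eGFP conditions on top, each with both arrays above the next. For NFKBIA, NFKBIB and NFKBIZ, the 4 bortezomib conditions came first, those at 24 h before those at 6 h, and the untreated conditions last without steps between them. TNFAIP3 was highest with bortezomib at 6 h, without a step to the untreated cells at 6 h, and lowest with bortezomib at 24 h. Over the 8 condition means, Pearson's r was -0.96 between NFKB1 and RELB, 0.96 between RELA and NFKBIB, 0.94 between NFKBIA and NFKBIZ and -0.92 between RELA and REL. These are descriptions over 8 means from the same 16 arrays.

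Of 15490 genes, those with the pattern most like RELB over the 8 means were HDHD3 (r = 0.990), HADHB (0.989) and CCAR2 (0.989), and those most like NFKB1 were SCML4 (0.987), METTL1 (0.986) and PABIR2 (0.983). TNFAIP3 was followed most closely by TXNRD2 (0.977), EARS2 (0.974) and TTC7B (0.973). None of these is among the 10 genes or the lists of the pathway below.

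The rest of the pathway was read from 4 lists. FBXW11, MAP3K8, TBK1, TAB1, IKBKE, OTULIN, ZC3H12A, ITCH, COMMD1, IL15, IRF1, CCL3, CCL4, CXCL10, BCL2L1 and WNT10A are named from them because of their values. Among 14 kinases and activators, 3 were higher in LP-1-cIAP2-eGFP and none lower, beside 6.26% and 9.84% of all probes: MAP3K14, the kinase of the non-canonical pathway (log2 difference 0.33, adjusted p = 0.00711), RIPK1, an adaptor kinase below the TNF receptor (0.44, adjusted p = 0.00111), and FBXW11, part of the ligase that ubiquitinates the inhibitors (0.31, adjusted p = 0.00635). The subunits of the canonical kinase complex did not pass, with 0.15 for CHUK, 0.11 for IKBKB and 0.12 for IKBKG. Of 13 tested negative regulators none passed between the lines, among them TNIP2 (-0.37) and NFKBID (0.17). Without the dim array, 5 of the kinases and activators were higher and none lower, and 1 negative regulator, ITCH, was higher (0.28, adjusted p = 0.0360) and 1, COMMD1, lower (-0.16, adjusted p = 0.0421), beside 11.3% and 11.9% of all probes. At 24 h of bortezomib 4 of the 14 kinases and activators rose in the control line and 6 in LP-1-cIAP2-eGFP, beside 9.81% and 11.1% of all probes. In LP-1-cIAP2-eGFP TAB1 and IKBKE fell, with -1.12 (adjusted p = 0.0135) and -2.35 (adjusted p = 0.0481), beside 17.5% of all probes. Without the dim array 5 of the 14 rose there and none fell, beside 13.3% and 13.8% of all probes, with -0.68 for TAB1 (adjusted p = 0.0534) and -0.72 for IKBKE (adjusted p = 0.0832), whereas 7 rose and 2 fell in the control line, where 14% and 16.5% of all probes then did. MAP3K8 rose by 3.94 and 3.44 on the log2 scale, and TBK1 by 1.54 and 1.34. TBK1 was the member of this list that had risen by 6 h in both lines (1.27 and 1.23, adjusted p = 0.0278 and 0.0432).

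Of 13 tested negative regulators outside the 10 genes, a minority rose with bortezomib at each time and none fell past the threshold. At 6 h 3 of 13 rose in the control line and 2 in LP-1-cIAP2-eGFP, beside 1.26% and 0.762% of all probes, with OTULIN, a deubiquitinase, and ZC3H12A, an RNase that degrades inflammatory transcripts, in both (1.88 and 1.78 for ZC3H12A, adjusted p = 0.0161 and 0.0268). At 24 h 5 and 4 rose, beside 9.81% and 11.1% of all probes. They included TAX1BP1 and TNIP1, partners of the product of TNFAIP3, with log2 differences of 1.499 and 1.59 for TAX1BP1 (adjusted p = 0.000178 and 9.80e-05) and 1.16 and 0.66 for TNIP1 (adjusted p = 0.000370 and 0.00680). TNFAIP3 itself did not rise at 24 h, as given above. CYLD, another deubiquitinase of the pathway, had 0.40 in the control line (adjusted p = 0.275) and had 0.75 in LP-1-cIAP2-eGFP (adjusted p = 0.0311), which without the dim array was 0.49 and did not pass (adjusted p = 0.152).

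Of 37 target genes, 29 could be tested between the lines, and 14 were lower and 2 higher in LP-1-cIAP2-eGFP, beside 9.84% and 6.26% of all probes. ICAM1, an adhesion molecule, lay between 10.89 and 11.12 on the 8 LP-1-cIAP2-eGFP arrays and from 12.07 to 12.61 on the 8 control arrays, with no overlap (log2 difference -1.38, adjusted p = 1.70e-06). IER3, an early response gene, differed by -0.90 (adjusted p = 0.00571) and CFLAR, an inhibitor of caspase-8 activation, by -0.40 (adjusted p = 0.0380). The 2 that were higher were the chemokine genes CCL3 (2.15, adjusted p = 0.00153) and CCL4 (3.22, adjusted p = 1.52e-05). The median of the list was -0.40. SOD2, GADD45B, TRAF1 and CD83 did not pass, with -0.16, 0.22, -0.81 and -0.45.

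With bortezomib at 24 h, 9 of 30 target genes rose and 5 fell in the control line, and 11 rose and 5 fell in LP-1-cIAP2-eGFP. Of all probes, 9.81% rose and 11.2% fell in the control line and 11.1% rose and 17.5% fell in LP-1-cIAP2-eGFP. CCL4 rose by 6.92 and 8.52 on the log2 scale and CCL3 by 5.73 and 5.68, while IER3 rose by 1.74 and 1.87 (adjusted p = 0.00562 and 0.00303). Those that fell in both lines included CXCL10 (-3.00 and -2.76) and BCL2L1, an anti-apoptotic gene (-1.60 and -1.44). ICAM1 had 0.16 and 0.07, short of the threshold. The targets thus did not move as one, and neither did the inhibitors among the 10 genes. At 6 h none of 30 passed in the control line, beside 1.95% of all probes. In LP-1-cIAP2-eGFP 1 of 29 passed, beside 1.09% of all probes: CCL4 rose there by 3.19 (adjusted p = 0.0148). Without the dim array 2 of 31 and 3 of 30 rose at 6 h, beside 2.85% and 2.04% of all probes, IL15 in both lines, IRF1 in the control line and BIRC3 in LP-1-cIAP2-eGFP being the further ones.

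A myeloma NF-κB signature list held 5 further genes besides BIRC3, which is among the 14 lower target genes above. Of the 5, CD74 and PLEK were lower in LP-1-cIAP2-eGFP and IL2RG and WNT10A higher, beside 9.84% and 6.26% of all probes, with -1.48 for CD74, the invariant chain of MHC class II (adjusted p = 4.04e-05), and 0.79 for IL2RG, a cytokine receptor chain (adjusted p = 0.000712). With bortezomib at 24 h 1 of the 5 rose and 2 fell in each line, beside 9.81% and 11.2% of all probes in the control line and 11.1% and 17.5% in LP-1-cIAP2-eGFP. CD74 fell by 0.91 in the control line (adjusted p = 0.0287) and, in LP-1-cIAP2-eGFP, by 1.56 (adjusted p = 0.00145). PLEK, a protein of blood cells, rose by 1.01 and 2.55 (adjusted p = 0.00322 and 1.53e-05). MALT1, a paracaspase that activates NF-κB, did not pass between the lines (-0.64, adjusted p = 0.0631), but did without the dim array (-0.44, adjusted p = 0.00577).

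**Figure D4:**
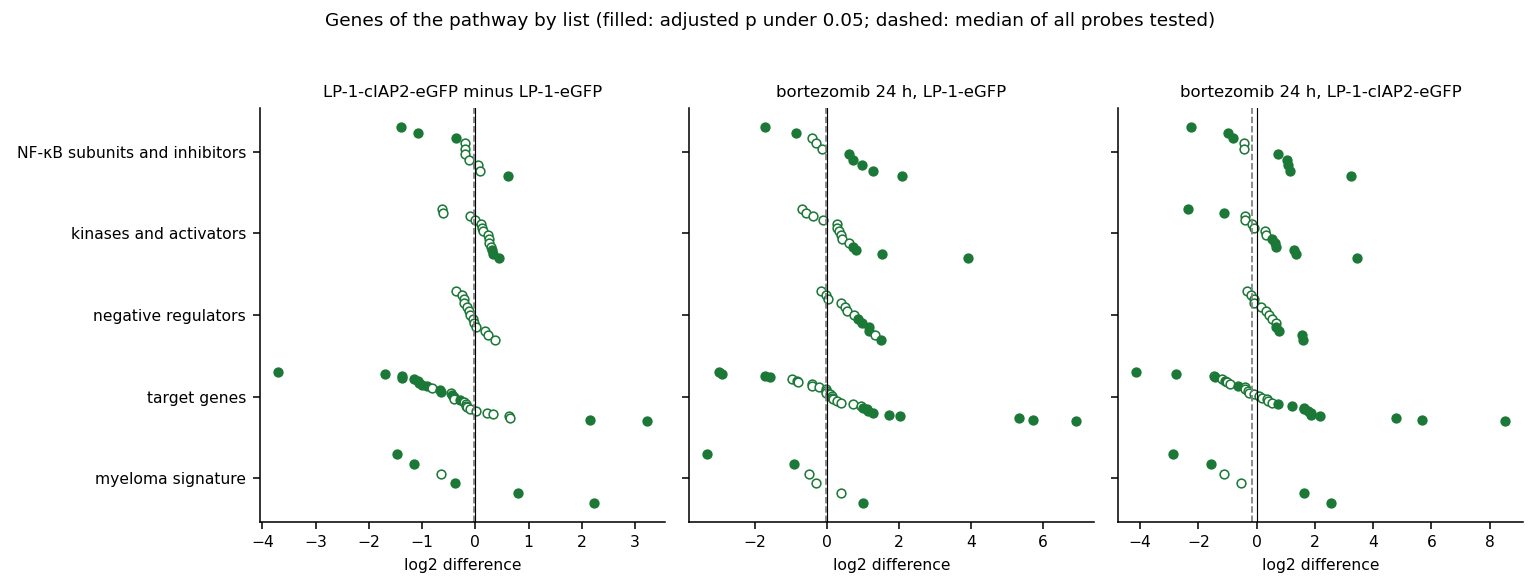
Log2 difference (x axis) of every tested gene of the 10 and of the 4 lists of the pathway (y axis, sorted within a list), between the lines (left) and with bortezomib at 24 h in the control line (middle) and LP-1-cIAP2-eGFP (right). Filled symbols passed an adjusted p of 0.05, the dashed line is the median of all probes, at -0.02, -0.03 and -0.16, and most filled target genes in the left panel, 14 of 16, lie below 0.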

How the data were processed

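RNA of 16 cultures was hybridised to 1-colour Agilent arrays. The authors scanned them with Agilent Feature Extraction (version 10.7.3.1), and the deposited scanner values are intensity values, already background-subtracted and spatially detrended per the file headers. The authors also deposited a log2 table, normalized and centred per probe, which served as an alternative. The lowest r of a column there with its own array was 0.9986. Control spots were left out, as were spots that the scanner software flagged as non-uniform or as outliers. The remaining log2 values were averaged over the spots of a probe and then quantile normalized, and dim probes were filtered. A model with a mean for each of the 8 conditions was fitted to all tested probes in limma (version 3.58.1, R 4.3.3), with p-values adjusted by Benjamini-Hochberg over all of them and a threshold of 0.05. It left 8 residual degrees of freedom, and the number of arrays limits the precision. The script was checked on simulated data. Probes were named through their RefSeq accession. No probe was matched to NFKB2, which is not analysed here. Genes most correlated with NFKBIA and 1 marker of other cells are not reported here. Replicates are those of the labels. Figures were drawn with matplotlib (version 3.10.9).

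The text names each of the 10 genes on its brightest probe, a list of further pathway genes, the 3 genes most correlated with each of NFKB1, RELB and TNFAIP3, and a few list members marked as chosen by their values. The members and lists were chosen with earlier results of these data known. Alternatives were normexp background correction (offset 50), scaling to the 75th percentile, the authors' log2 table, other filters, slide and replicate blocks, array weights, no moderation, averaged probes, a model of 2 groups, and leaving out each array.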

Additional observations from a re-analysis of the deposited data

Results flagged for a closer look

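For 9 results an effect was flagged as differing between times or conditions. The flag was either the test of the difference in limma or opposite directions in every array. The second rule is not a test, and with 2 arrays in a condition it can be met by chance. Its share among all probes was not counted, so results flagged by it alone are not shown to differ. The response of RELB to bortezomib was 0.96 larger at 24 h than at 6 h in LP-1-cIAP2-eGFP on the log2 scale (adjusted p = 0.0207). In the control line, LP-1-eGFP, the gap was 0.67, with opposite signs in every array, and did not pass (adjusted p = 0.115). Without the dim array, replicate 1 of LP-1-cIAP2-eGFP given bortezomib for 24 h, it was 0.66 and passed (adjusted p = 0.0480). REL in the control line had a gap of -0.88 (adjusted p = 0.0228), from a response of 0.02 at 6 h to -0.86 at 24 h, and in LP-1-cIAP2-eGFP -0.61, which did not pass (adjusted p = 0.0554) but did without the dim array (adjusted p = 0.0364). BCL3 in LP-1-cIAP2-eGFP had the largest gap, -2.42 (adjusted p = 0.00342), and in the control line it had -1.38, which did not pass (adjusted p = 0.0538) but did without the dim array (adjusted p = 0.0231). TNFAIP3 moved from 0.27 at 6 h to -0.81 at 24 h in LP-1-cIAP2-eGFP, a gap of -1.08 (adjusted p = 0.0202), and had -0.56 in the control line (adjusted p = 0.259), where the signs were opposite in every array. RELA in the control line had 0.72 (adjusted p = 0.0842), which passed without the dim array (adjusted p = 0.0240). Whether these gaps differed between the lines was not tested. Of all probes, 3.93% passed this test in the control line and 8.63% in LP-1-cIAP2-eGFP, and without the dim array 3678 of 34472 and 4364 of 34332 probes did. The gaps in LP-1-cIAP2-eGFP were then 1.04 for RELB, -2.20 for BCL3 and -1.19 for TNFAIP3, and each passed.

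The line difference of NFKBIE changed sign. With bortezomib it was 0.39 at 6 h and -0.53 at 24 h, a gap of -0.93 (adjusted p = 0.526). The size of the difference at 24 h rests largely on the dim array. Without that array the difference at 24 h was -0.09 and the gap -0.48, so the sign still changed. From untreated to treated cells at 6 h the gap was 0.52 (adjusted p = 1.00). That of NFKBIZ at 24 h was -0.54 untreated and 0.60 with bortezomib, a gap of 1.14 (adjusted p = 0.637). These 3 had opposite signs in every array and did not pass.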

How the results depend on the processing

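RELB, BCL3, NFKB1 and REL passed between the lines, averaged over treatment and time, in each of 26 alternatives with the same direction, from -1.14 to -1.02 for RELB, -1.47 to -1.28 for BCL3, 0.58 to 0.64 for NFKB1 and -0.39 to -0.35 for REL. No called value changed direction. The 2-group model with its own limits gave 2 genes in place of 4. Leaving out single arrays gave 4 to 5 genes there, 2 to 3 between the untreated lines (2 without LP-1-eGFP untreated 6 h replicate 1, when NFKB1 was lost) and 4 to 4 between the treated lines. Array weights, which were equal for both arrays of a condition, gave 2 in place of 4 between the treated lines, with NFKB1 and REL lost, 3 in place of 0 at 6 h in the control line and 3 in place of 8 at 24 h in LP-1-cIAP2-eGFP. With probes well above background on all arrays, 1 gene passed at 6 h in the control line and 2 in LP-1-cIAP2-eGFP, and without moderation 0 and 1. Scaling to the 75th percentile gave 4 in place of 7 at 24 h in the control line. The causes of these shifts were not tested.

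Leaving out single arrays gave 0 to 1 genes at 6 h in the control line (NFKBIE, without either LP-1-cIAP2-eGFP bortezomib 24 h array), 4 to 8 at 24 h in the control line (4 without either LP-1-eGFP bortezomib 24 h array or replicate 2 of its untreated 24 h arrays, when NFKBIB, NFKBIZ and RELB were lost), 7 to 9 at 24 h in LP-1-cIAP2-eGFP and 0 to 1 for the difference of the responses at 24 h (NFKBIE, without LP-1-cIAP2-eGFP bortezomib 24 h replicate 2). With the replicate block, 2 genes, NFKBIA and NFKBIZ, passed at 6 h in LP-1-cIAP2-eGFP in place of 0 (adjusted p = 0.0448 and 0.0401), and NFKB1 was gained at 24 h. Same-numbered arrays correlated between -0.11 and 0.24 in their deviations over 28 pairs of conditions, over 0.1 in 7, so over all probes the numbers were not shown to pair the arrays. Replicate 1 was nevertheless above replicate 2 in 8 of 8 conditions for NFKBIA (by 0.06 to 0.42) and for NFKBIZ, and below it in 8 of 8 for NFKBIB. What the numbers share was not tested.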
